A study of Mus musculus with 8 samples.

Results

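The comparison described here sets bone marrow mesenchymal stem cells labelled PCL-E, day 7 against those labelled PCL-O, day 7. The names are those of scaffolds, and the treatment protocol describes how extracts of them were made. An extract is culture medium (DMEM with fetal bovine serum) in which a scaffold of polycaprolactone (PCL), a slowly degrading polyester, had been soaked. The series names a blank group, an S7 group, an E7 group and a group with both, and its title calls S7 and E7 peptides. PCL-E was read as the E7 extract and PCL-O, by elimination, as the blank. All cells are labelled as a wild-type BMSCs cell line under osteogenic differentiation, so both sides of the comparison share that treatment, the scaffold polymer and the medium. No source used here gives the composition or dose of S7 or E7. The extraction protocol speaks of RNA samples with n = 3, but counts were deposited as 1 column for each extract and day, 8 in all, and no source used here says whether RNA was pooled. Each side of the comparison is therefore 1 library. There is no replicate check and no p-value, and every interval below covers counting error only.

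The members are the genes with a rat Ensembl identifier that reached at least 20 CPM (counts scaled to a common library size) in either of the 2 libraries. They number 6920 of the 26873 features in the table. A gene under 20 CPM on either side is a member only through the other side, so its difference is partly set by this rule. The counts of genes at 2-fold below include such genes, among them Cyp1a1, Angptl4 and Ccl2 (higher) and Igfbp3 (lower). At the threshold, Mfsd10, Oxnad1 and Ncaph (20.022 CPM in the higher library) were the last inside and Mospd3, Spry2 and Lama2 (19.998 CPM) the first outside. The labels name Mus musculus, while 22050 features carry rat identifiers and 0 carry mouse ones. Gene symbols follow the identifiers, and no positions or sequences are given. Levels are printed as normalised CPM, which are CPM scaled with TMM over all 8 libraries. A ratio is PCL-E over PCL-O with nothing added, and its 95% counting interval is exact (Clopper-Pearson).

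Mesenchymal stromal cells from marrow can form bone, cartilage and fat cells, and in culture they lay down a matrix of collagens, fibronectin and elastic fibres. Osteogenic medium drives them towards osteoblasts, which deposit collagen and mineral under the control of Runx2 and of bone morphogenetic protein (BMP) signals. Cells that meet small lipophilic or reactive compounds switch on detoxifying enzymes through the aryl hydrocarbon receptor (AHR) and the stress sensor NRF2, and fatty acids act in part through PPAR receptors.

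The libraries held 32955649 counts (PCL-O) and 41754124 counts (PCL-E), within the range of 32950326 to 41754124 over all 8. A level of 20 CPM stands for 659 and 835 counts. The summed normalised CPM of 11 mesenchymal stromal markers was 5483 and 4949.9 in PCL-O and PCL-E, and that of 6 smooth muscle markers was 9891 and 7624. Leukocyte markers summed to 1.05 and 0.658, with Adgre1, Cd163, Cd3e and Tyrobp at 0 in both. Endothelial markers summed to 3.53 and 4.23, with Cdh5, Emcn, Kdr and Tie1 at 0 in both. Adipocyte markers summed to 0.350 and 1.97, with Adipoq, Cidec, Lep and Plin1 at 0 in both. Epithelial markers summed to 3.40 and 11.0. Of the osteoblast markers, Col1a1 and Runx2 were members, whereas Bglap (0.159 and 0.0705 normalised CPM), Ibsp (0.191 and 0.329) and Sp7 (0.0636 and 0.305) were near 0 in both libraries. Alpl and Dmp1, of the same list, were under 20 CPM in both libraries but higher than these, as given below. Bglap, Ibsp and Sp7 were thus near 0 under the osteogenic label. In bulk RNA, fewer cells of a type and less RNA per cell cannot be told apart.

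With the E7 extract, 61 genes were 2-fold or more higher (0.882% of the 6920) and 84 were 2-fold or more lower (1.21%) than with the blank, 145 in all (2.1%). Total-count scaling in place of TMM gave 69 higher and 63 lower. At 1.5-fold, 172 genes were higher (2.49%) and 369 lower (5.33%), 541 in all (7.82%). The largest ratios were those of Angptl4 and Cyp1a1 on the higher side and of Igfbp3 and the clone-named LOC108351058 on the lower side. The lower and upper quartiles of the log2 ratios were -0.19 and 0.18, around a median of 0.01. Counting error was small beside this spread. The median half-width of the log2 counting interval was 0.0926, and for 52 of the 61 and 61 of the 84 genes the whole interval lay past 2-fold.

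**Figure D1:**
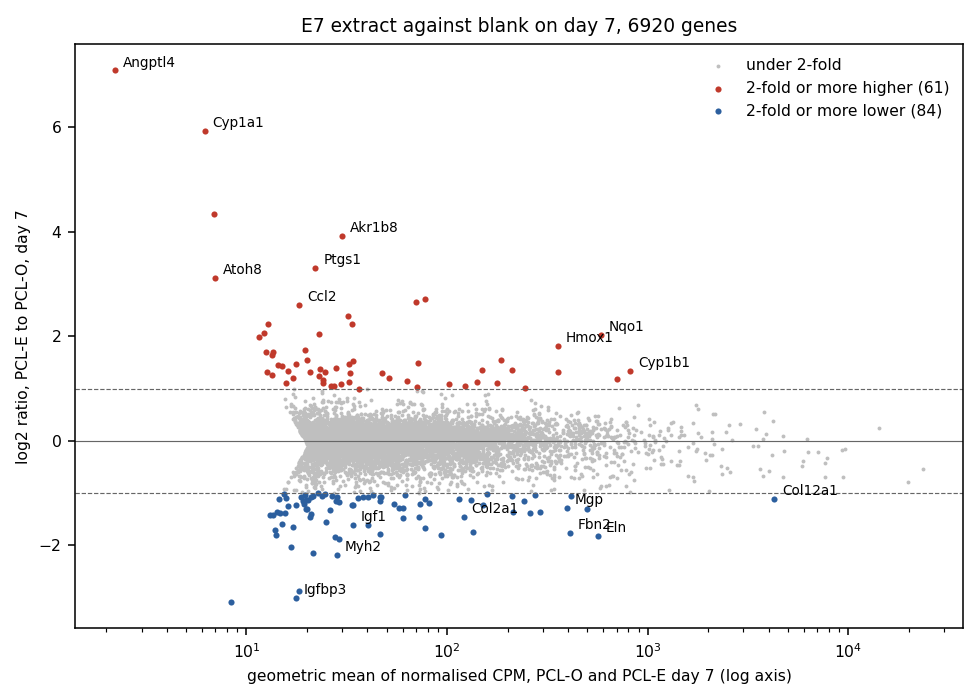
Each point is 1 of the 6920 genes; the x axis is the geometric mean of its normalised CPM in PCL-O and PCL-E on day 7 (log axis) and the y axis the log2 ratio of PCL-E to PCL-O. The 61 genes in red are 2-fold or more higher and the 84 in blue 2-fold or more lower, and dashed lines mark 2-fold.

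Ratios also followed gene length, a property of the whole pair of libraries that touches every gene group below. Genes were split into 5 groups of 1384 by length. In the group with the shortest transcripts (up to 1613 nucleotides) the median log2 ratio was 0.15, with 21 genes 2-fold higher and 11 lower. In the group with the longest (from 4546 nucleotides) it was -0.24, with 6 higher and 36 lower. Across the 6920 genes, Spearman's rho between length and ratio was -0.491, against -0.108 for PCL-E to PCL-O on day 3 and 0.183 for PCL-SE to PCL-S on day 7. These are descriptions across genes of the same libraries. With the length trend removed, 58 genes were 2-fold higher and 70 lower, of which 52 and 63 were among the 61 and 84. For most gene groups below the median is given as measured and with the trend removed. The part of length in any group's value was not tested. Over all 6920 members, 0.882% were 2-fold higher and 1.21% lower, with 3512 above 0 and 3408 below. List counts are to be read beside these values, and a count of 0 or 1 is too small to be set apart from them.

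**Figure D2:**
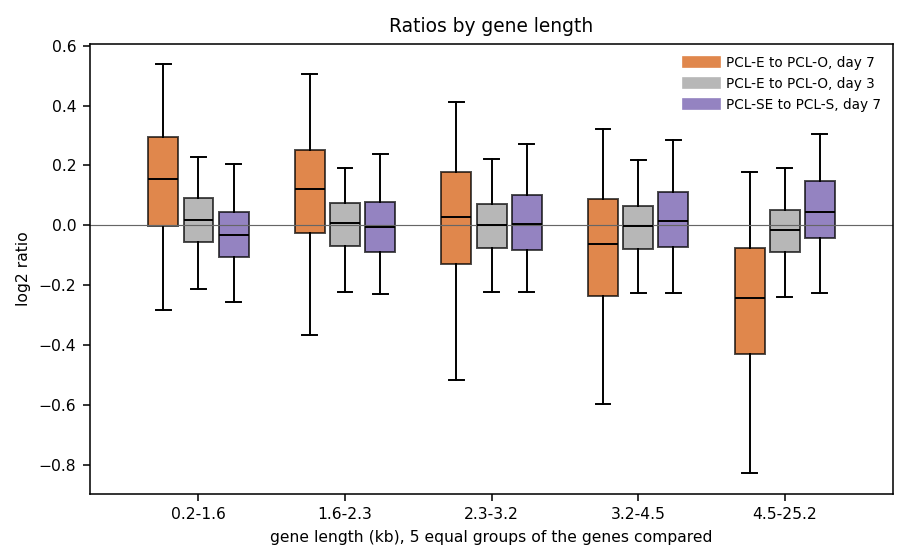
Boxes show the quartiles and median of the log2 ratios, with whiskers over the central 90% of genes, in 5 groups of 1384 genes ordered by length (kb). In PCL-E to PCL-O on day 7 the medians run from 0.15 in the shortest to -0.24 in the longest group, whereas on day 3 they run from 0.02 to -0.02.

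The list of AHR targets had the highest median of the gene lists with 4 or more members. The lists were chosen with earlier results of these data known, so their order is a description only. Of the 7 AHR members, 5 were 2-fold higher and 0 lower, against 0.882% higher over all members. The median log2 ratio of the 7 was 1.33 (1.35 with the length trend removed), against 0.01 over all members. Cyp1a1, the cytochrome P450 most closely tied to AHR, was at 0.795 normalised CPM in PCL-O (25 counts) and 48.3 in PCL-E (2058 counts), 60.8-fold higher (95% counting interval 41.1 to 94.2). Cyp1b1, a related P450 of stromal cells, was at 517 and 1301 normalised CPM, 2.52-fold higher (2.48 to 2.56). The repressor of the receptor, Ahrr, stood at 14.4 and 37.4, and Tiparp, an ADP-ribosyltransferase that also dampens the receptor, at 49.6 and 101. Cyp1a1 and Ahrr were under 20 CPM in PCL-O and are members only through PCL-E. The count of higher AHR targets is therefore partly set by the member rule. The receptor gene itself went the other way: Ahr was at 363 normalised CPM in PCL-O and 188 in PCL-E, a log2 ratio of -0.95, while its partner Arnt had -0.11. On day 3, 0 of these 7 genes were 2-fold apart between the extracts, and their log2 ratios were all below 0, with a median of -0.15. Cyp1a1 was then at 5.83 (PCL-O) and 4.27 (PCL-E).

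Among 21 members of the NRF2 list, 4 were 2-fold higher and 0 lower, against 0.882% higher over all members. Of the 21, 19 had a log2 ratio above 0. The median was 0.49 (0.42 with the length trend removed). Akr1b8, an aldo-keto reductase that clears reactive aldehydes, was at 7.72 and 117 normalised CPM, 15.2-fold higher (13.3 to 17.3). Its close relatives make read assignment uncertain. Akr1b8 was also under 20 CPM in PCL-O and is a member only through PCL-E. Nqo1, a quinone reductase listed under both AHR and NRF2, stood at 288 and 1179, 4.09-fold higher (4.001 to 4.18). Hmox1, which breaks down haem and releases iron, was at 191 and 673, 3.53-fold higher (3.44 to 3.63). These genes encode aldehyde, quinone and haem enzymes. Fth1, the heavy chain of the iron store ferritin, was at 469.9 and 1062 normalised CPM, with processed copies that make its counts uncertain. Slc40a1, the iron exporter, has 2 identifiers, of which 1 is a member, only through PCL-E. It was at 8.04 and 20.03. These iron genes made up 3 of the 10 members of the iron and metal list, and the others lay close to equal levels, with the transferrin receptor Tfrc at -0.02 (log2). The list's median of -0.01 became 0.16 with the length trend removed. The glutathione and thioredoxin genes differed less, with log2 ratios of 0.64 for Gclm, 0.70 for the cystine transporter Slc7a11, 0.38 for Gclc and 0.49 for Txnrd1. Nfe2l2, which encodes NRF2, had 0.25 and its inhibitor Keap1 -0.12.

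Of 11 members of the PPAR and lipid handling list, 4 were 2-fold higher and 0 lower, against 0.882% higher over all members. The median log2 ratio of the list was 0.78 (0.63 with the length trend removed). Angptl4, a PPAR target whose secreted product inhibits lipoprotein lipase, had the largest ratio of all members. It was at 0.191 normalised CPM in PCL-O, from 6 counts, and 25.9 in PCL-E, from 1104 counts. That is 136-fold higher, with a wide counting interval of 62.3 to 371 because of the few counts in the blank. On day 3 Angptl4 had been low in both, at 1.98 (PCL-O) and 1.24 (PCL-E). Cpt1a, which admits fatty acids to mitochondria for oxidation, was at 15.5 and 73.3 normalised CPM, 4.74-fold higher (4.30 to 5.22). Angptl4 and Cpt1a were under 20 CPM in PCL-O and are members only through PCL-E. The count of higher PPAR genes is therefore partly set by the member rule. The fatty acid carrier Fabp3 was at 33.9 and 77.7, and the lipid droplet coat Plin2 at 25.8 and 51.7, which is at the 2-fold line and falls below it with DESeq2 size factors. Hadha and Acadvl, enzymes of fatty acid oxidation, had log2 ratios of 0.88 and 0.56. The marker genes of fat cells stayed near 0, as given above.

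Sterol genes lay on the other side, by a small amount. All 17 members of the cholesterol synthesis list had a log2 ratio below 0 with TMM, DESeq2 size factors and total-count scaling, and 16 did with the length trend removed. None was 2-fold apart, and the median was -0.34 (-0.35 with the trend removed). Srebf2, the transcription factor of this pathway, was at 127 and 79.6 normalised CPM. On day 3 all 17 were above 0, with a median of 0.18, so the order of the extracts was opposite on the earlier day. The difference between the days was not tested.

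Elastic fibre genes lay lower with the E7 extract. Elastic fibres are a core of elastin on a scaffold of fibrillins, crosslinked by lysyl oxidases. Of 17 members, 0 were 2-fold higher and 2 lower, against 1.21% lower over all members. All 17 were below 0, with 15 below 0 under total-count scaling and 16 with the length trend removed. The median log2 ratio was -0.55 (-0.42 with the trend removed). Eln, elastin itself, was at 1059 normalised CPM in PCL-O and 299 in PCL-E, 3.54-fold lower (3.47 to 3.61). On day 3 Eln was at 1273 (PCL-O), 1585 (PCL-E), 756 (PCL-S) and 675 (PCL-SE). Its level was thus high in all day 3 libraries. Fbn2, a fibrillin of growing tissue, was at 756 and 222 normalised CPM, 3.40-fold lower (3.32 to 3.48). Fbn1 stood at 2818 and 1448, and the linker Fbln5 at 1148 and 582. Lox, the main lysyl oxidase, had a log2 ratio of -0.64, and the latent TGF-beta binding proteins Ltbp1 and Ltbp2 had -0.68 and -0.69. Fbln2 and Efemp2 differed least, at -0.01 and -0.02.

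The products of basement membrane genes form the sheet under epithelia and around muscle and vessels. Of 15 members, 0 were 2-fold higher and 2 lower, against 1.21% lower over all members. All 15 were below 0 (14 with the length trend removed). The median was -0.52, and -0.29 with the trend removed. These are long genes, with a median length of 6054 nucleotides against 2722 over all members. Fras1, which anchors the epidermis to the dermis in development, was at 175 and 50.1 normalised CPM, 3.49-fold lower (3.32 to 3.67). Col18a1, the other list member at 2-fold, was at 38.6 and 18.6. Under total-count scaling, and with the length trend removed, 1 member was 2-fold lower. Frem1, the binding partner of Fras1, is not on the list and was at 26.2 and 7.49. The main collagen chains of the sheet differed little, with log2 ratios of -0.27 for Col4a1 and -0.18 for Col4a2. In PCL-SE to PCL-S on day 7, 13 of the 15 were below 0, with a median of -0.22 and 0 at 2-fold. On day 3, 6 were above 0 and 9 below in PCL-E to PCL-O. Elastic fibre genes did not share the lean of the PCL-SE pair, with 9 above 0 and 8 below.

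Of 22 members of the fibrillar collagen and matrix list, 0 were 2-fold higher and 3 lower, against 1.21% lower over all members. The median of the list was -0.21 (-0.15 with the trend removed). Total-count scaling left 2 lower and removal of the trend 1 lower and 1 higher. Fndc1, a fibronectin-domain protein, was at 86.1 and 25.1 normalised CPM, 3.43-fold lower (3.20 to 3.69). Col12a1, which decorates collagen fibrils, was at 6280.0 and 2911, 2.16-fold lower (2.14 to 2.17). Col1a1 and Col1a2, the chains of type I collagen, had log2 ratios of -0.79 and -0.70, and the matrix protein Postn -0.69. Col5a2 and Col11a1 were closer to equal, at -0.11 and 0.13, so the fibrillar collagens did not share 1 ratio. The enzymes that fold and crosslink collagen had 0 of 14 members at 2-fold and a median of -0.15 (-0.14 with the trend removed). Timp3, a matrix-bound metalloproteinase inhibitor, was at 167 and 77.8 normalised CPM and was the 1 of 13 metalloproteinase and inhibitor genes at 2-fold.

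Bone matrix genes did not stand higher with the E7 extract. Of 11 members of the bone matrix and mineralisation list, 0 were 2-fold higher and 1 lower, and 9 were below 0. The median was -0.44 (-0.47 with the trend removed). Mgp, an inhibitor of calcification, was the 1 at 2-fold, at 617 and 254 normalised CPM, 2.43-fold lower (2.37 to 2.49). Spp1, osteopontin, was at 1358 and 1002 normalised CPM, and Enpp1, which makes the mineralisation inhibitor pyrophosphate, at 844 and 527. The genes at lower levels therefore included both matrix proteins and inhibitors of mineral. Alpl, the alkaline phosphatase used as an osteogenic readout, stayed under 20 CPM in both libraries, at 13.8 and 8.43 normalised CPM, and Dmp1 was at 9.47 and 1.69. Of 6 osteoblast transcription factors, 0 were 2-fold apart and 5 were above 0, with a median of 0.27 (0.23 with the trend removed). Runx2 was at 20.6 and 23.6 normalised CPM, and Msx2 at 54.8 and 105, a log2 ratio of 0.94 that passes 2-fold with total-count scaling.

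Of 14 members of the list of BMP ligands, antagonists and targets, 5 were 2-fold higher and 1 lower, with a median of 0.61 (0.58 with the trend removed). Under total-count scaling 5 were higher and 0 lower, and with the length trend removed 4 and 0. Id2, an inhibitor of helix-loop-helix factors, was at 11.3 and 46.7 normalised CPM, 4.14-fold higher (3.69 to 4.64), and Id1 at 21.0 and 51.3. Atoh8, a helix-loop-helix factor, was at 2.38 and 20.6, 8.64-fold higher (6.82 to 11.1), and the inhibitory Smad6 at 19.1 and 39.4. Nog, the secreted BMP antagonist noggin, was at 6.01 and 25.2 normalised CPM, 4.19-fold higher (3.58 to 4.91). Id2, Atoh8, Smad6 and Nog were under 20 CPM in PCL-O and are members only through PCL-E, so the count of higher genes is partly set by the member rule. Among the ligands, Bmp3 was at 304 and 146, Bmp6 had a log2 ratio of -0.76 and Bmp4 of 0.02. On day 3 Id2 was at 52.2 (PCL-O) and 51.0 (PCL-E), Nog at 29.5 and 20.5, and Smad6 at 49.97 and 45.7.

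Of 14 TGF-beta genes, 1 was 2-fold higher and 0 lower, with a median of -0.10 (-0.11 with the trend removed). The 1 was Tgfbi, a secreted target, at 6.90 and 22.5 normalised CPM. The ligand Tgfb1 had a log2 ratio of -0.45. Of 4 Notch genes, Notch1 was at 31.1 and 12.6 normalised CPM, 2.47-fold lower (2.22 to 2.75). It is a long transcript, and its log2 ratio of -1.30 became -0.87 with the length trend removed. Notch2 and the ligand Jag1 had -0.68 and -0.66 and the target Hes1 0.30. Of 10 Wnt genes and 14 YAP and Hippo genes, 0 were 2-fold apart. The BMP list had 6 of 14 members at 2-fold, against 2.1% of all 6920 genes. Under total-count scaling the BMP list had 5 and with the length trend removed 4. Among the 6, Id2, Atoh8, Smad6 and Nog are members only through PCL-E. The BMP count is thus partly set by the member rule and was not tested against the share over all genes. Total-count scaling put 2 TGF-beta genes and 1 YAP gene at 2-fold. As measured, counts of 0 or 1 in the TGF-beta, Notch, Wnt and YAP lists are too small to be set apart from 2.1%.

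The insulin-like growth factor (IGF) axis had 3 of 11 members 2-fold lower and 0 higher, against 1.21% lower over all members. The median of the list was -0.33 (-0.21 with the trend removed). Igfbp3, which binds IGF in the extracellular space, was at 50.3 and 6.22 normalised CPM, 8.07-fold lower (7.08 to 9.23). Igfbp4 was at 138 and 43.5, 3.16-fold lower (3.00 to 3.34). The ligand Igf1 was at 58.9 and 19.4, 3.04-fold lower (2.80 to 3.30). Igfbp3 and Igf1 were under 20 CPM in PCL-E and are members only through PCL-O, so this count is partly set by the member rule. The receptor Igf1r had a log2 ratio of -0.33 and the IGF-binding Igfbp7 0.20. Of the 11 members, 9 were below 0 and 2 above, the highest at 0.35. The summed normalised CPM of the 15 matched genes of the list was 4619 in PCL-O and 4232 in PCL-E. On day 3 Igfbp3 was at 12.3 (PCL-O) and 9.51 (PCL-E), well under its day 7 level in PCL-O.

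Cartilage genes diverged. Col2a1, the collagen of cartilage, was at 201 and 73.0 normalised CPM, 2.75-fold lower (2.63 to 2.87), and Col9a2 at 225 and 112. Acan, the cartilage proteoglycan aggrecan, was at 92.7 and 238, 2.56-fold higher (2.46 to 2.67). Of the 5 cartilage members, 1 was 2-fold higher and 2 lower. Under total-count scaling, and with the length trend removed, 1 was higher and 1 lower. On day 3 all 5 were below 0, with a median log2 ratio of -0.72. Acan was then at 206 (PCL-O) and 115 (PCL-E), the opposite order to day 7. Among muscle genes, Myh2, a myosin of fast skeletal fibres, was at 60.4 and 13.3 normalised CPM, 4.55-fold lower (4.14 to 5.01), although the myogenic factor Myod1 was at 0 in both libraries. Acta1 and Casq2 were the other striated members at 2-fold, at -1.17 and -1.14 (log2). Of 17 smooth muscle and myofibroblast genes, 0 were 2-fold higher and 2 lower, with a median of -0.33 (-0.29 with the trend removed). Myh11, smooth muscle myosin, was at 341 and 132, and Actg2 at 119.9 and 43.9. The actin genes are close copies and their counts are uncertain. Acta2, the usual myofibroblast marker, differed less, at 8763 and 6983 normalised CPM, and Tagln had a log2 ratio of 0.09. Of 8 cadherins, all were below 0 (6 with the length trend removed), and Dchs1, a giant cadherin of cell polarity, was the 1 at 2-fold, at 26.1 and 8.64.

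Signals to other cells included Ccl2, the monocyte chemokine, at 7.44 and 45.4 normalised CPM, 6.10-fold higher (5.32 to 7.01). It was the 1 of 3 chemokine and cytokine members at 2-fold. The others were Csf1, a macrophage growth factor, at 89.9 and 99.3, and Lif, a cytokine of the interleukin 6 family, at 21.3 and 19.3, with log2 ratios of 0.14 and -0.14. Genes of the list that did not reach 20 CPM included Ccl7, at 1.37 and 14.8, Cxcl1 at 1.18 and 6.37 and Il6 at 1.59 and 5.17, picked out after their values were seen. They do not stand for the list. Of its 23 genes, 8 were at 0 in PCL-O and 7 in PCL-E. Il1b was at 0 only in PCL-E, and Cxcl3 and Il1rn only in PCL-O. Pgf, placental growth factor, was at 5.88 and 27.7, 4.72-fold higher (4.04 to 5.54). The prostaglandin genes Ptgs1, a cyclooxygenase, and Ptgr1, a reductase that inactivates eicosanoids, were at 6.99 and 69.6 and at 14.0 and 73.7 normalised CPM. The inducible cyclooxygenase Ptgs2 had a log2 ratio of 0.10, so both cyclooxygenases did not share the difference. Of the NF-kB, interferon and complement lists, 0 of 6, 0 of 6 and 0 of 4 members were 2-fold apart. Fgfr3, a growth factor receptor of the skeleton, was at 42.7 and 119.9, 2.81-fold higher (2.64 to 2.98), and was the 1 of 18 members of the growth factor and receptor list at 2-fold. Under total-count scaling and with the length trend removed, 2 of the 18 were 2-fold higher, the other being Kitlg, the ligand of Kit, with a log2 ratio of 0.99. Pgf is not on that list. Cmklr1, the chemerin receptor, was at 45.2 and 10.2, 4.43-fold lower (3.98 to 4.95), the nucleoside transporter Slc29a1 at 33.8 and 8.27, and the guidance factor Slit3 at 246 and 73.7.

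Housekeeping and growth groups differed little. Of 19 mitosis and 15 DNA replication genes, 0 were 2-fold apart, with medians of -0.13 and 0.13 (-0.05 and 0.09 with the trend removed). Ccnd1, cyclin D1, was the 1 of 7 cyclin and inhibitor genes at 2-fold, at 225 and 561 normalised CPM, 2.49-fold higher (2.43 to 2.56). Of 28 cytosolic ribosomal protein genes, 27 were above 0, with a median of 0.35, and these are short genes (median 664 nucleotides). With the length trend removed 24 were above 0 and the median was 0.21. Rplp2, the 1 at 2-fold, has many copies and is uncertain. Oxidative phosphorylation had 0 of 21 members at 2-fold and a median of 0.18, or 0.05 with the trend removed. Endoplasmic reticulum stress (18 members), cytosolic heat shock (14) and lysosome genes (21) likewise had 0 at 2-fold. Of 18 amino acid response genes of ATF4, 0 were 2-fold higher and 1 lower, with a median of 0.31 (0.22 with the trend removed, where 1 was higher). The 1 was Nupr1, a stress-induced chromatin protein, at 83.2 and 35.8. Among 20 hypoxia and glycolysis genes, Epas1, which encodes HIF-2 alpha, was the 1 at 2-fold, at 29.2 and 13.3 normalised CPM.

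**Figure D3:**
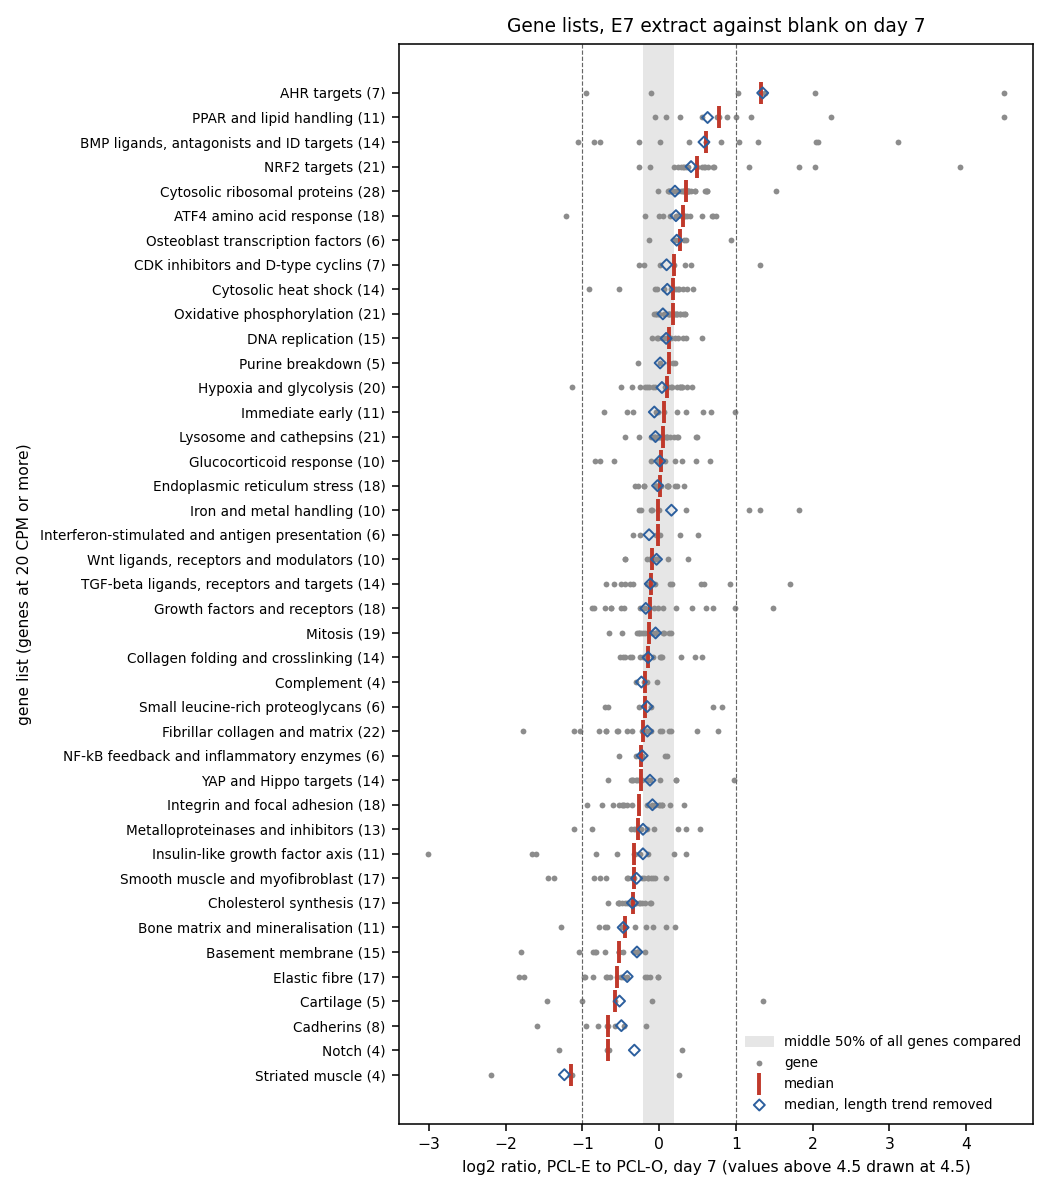
Grey points are the log2 ratios of the members of each gene list with 4 or more members (number in brackets), red bars their medians, blue diamonds the medians with the length trend removed, and the shaded band the middle quartiles of all 6920 genes. AHR, PPAR, BMP and NRF2 genes lie highest, and striated muscle, Notch, cadherin, cartilage, elastic fibre and basement membrane genes lowest.

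The same extract pair on day 3 gave far fewer differences. Of the same 6920 genes, 6 were 2-fold higher with the E7 extract (0.0867%) and 17 lower (0.246%), 23 in all (0.332%). The quartiles of the log2 ratios were 0.146 apart, against 0.373 on day 7. Of the 61 genes 2-fold higher on day 7, 0 were 2-fold higher on day 3, 29 were above 0 and 32 below. Of the 84 lower genes, 5 were 2-fold lower on day 3, 55 were below 0 and 29 above. The 5 included Myh2, at 115 (PCL-O) and 48.1 (PCL-E) normalised CPM on day 3, Col2a1, at 303 and 144, and Dchs1, with a log2 ratio of -1.20. These genes were thus lower with the E7 extract on both days. Across the 6920 genes, the day 7 and day 3 ratios had a Pearson r of 0.107 and a Spearman rho of 0.166. This is a description across genes, which are not independent replicates. Among the 6625 genes with at least 20 CPM in either day 3 library, the ends were Dr1, AABR07046778.1 and LOC687780 on the higher side and Cd248, Rps27a and AABR07063424.1 on the lower. All but the stromal surface protein Cd248 have close copies or are clone-named genes and are uncertain. Cd248 was at 29.7 and 8.63 normalised CPM on day 3 and at 27.9 and 31.1 on day 7.

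Each day 7 library was also set against the mean log2 level of PCL-O and PCL-E on day 3, a description added after the values were seen. Of the 61 higher genes, PCL-E lay nearer to the day 3 level for 30 and PCL-O for 31, and of the 84 lower genes PCL-E lay nearer for 35 and PCL-O for 49. Over all 6920 genes PCL-E was nearer for 39.2%. Among the higher genes the blank was a median of 0.78 below and the E7 library 0.63 above the day 3 level on the log2 scale. Genes chosen for a 2-fold ratio on day 7 tend to lie on both sides of a common reference, so these values do not show which library moved. Fndc1 was at 14.0 and 11.6 normalised CPM on day 3 and 86.1 (PCL-O) and 25.1 (PCL-E) on day 7. Igfbp4 was at 176 and 212 on day 3 and 138 and 43.5 on day 7.

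Adding E7 to S7, the PCL-SE extract against PCL-S on day 7, shares no library with the comparison above. Of the 6920 genes, 10 were 2-fold higher in PCL-SE (0.145%) and 15 lower (0.217%), 25 in all (0.361%). With 2 CPM added to each level the 25 became 13, so much of this count rests on genes at low levels. The quartiles of the log2 ratios were 0.183 apart. Of the 61 genes higher with E7 alone, 2 were 2-fold higher in this pair and 34 of 61 were below 0. Of the 84 lower genes, 7 were 2-fold lower and 2 were 2-fold higher. The 2 higher in both were Tgfbi, at 30.4 (PCL-S) and 62.0 (PCL-SE) normalised CPM, and the clone-named AABR07048992.1. Among the 7 lower in both were Col2a1, at 1.95 and 0.738, Col9a2, at 8.55 and 2.72, and Acta1, at 2.22 and 0.853. Levels of Col2a1 and Acta1 were low in both libraries with S7. The median log2 ratios of the AHR, NRF2, PPAR, BMP and elastic fibre lists in this pair were 0.03, -0.04, -0.03, 0.01 and 0.001. Across genes, the ratios of E7 against blank and of PCL-SE against PCL-S had a Pearson r of -0.0046 and a Spearman rho of -0.0428. Among the 7422 genes with at least 20 CPM in PCL-S or PCL-SE, the ends were AABR07072184.1, LOC108351058 and AABR07048992.1 on the higher side and Ripor2, LOC100911319 and Pak2 on the lower. All but Ripor2, a regulator of small GTPases with a log2 ratio of -2.07, are clone-named or have close copies and are uncertain.

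**Figure D4:**
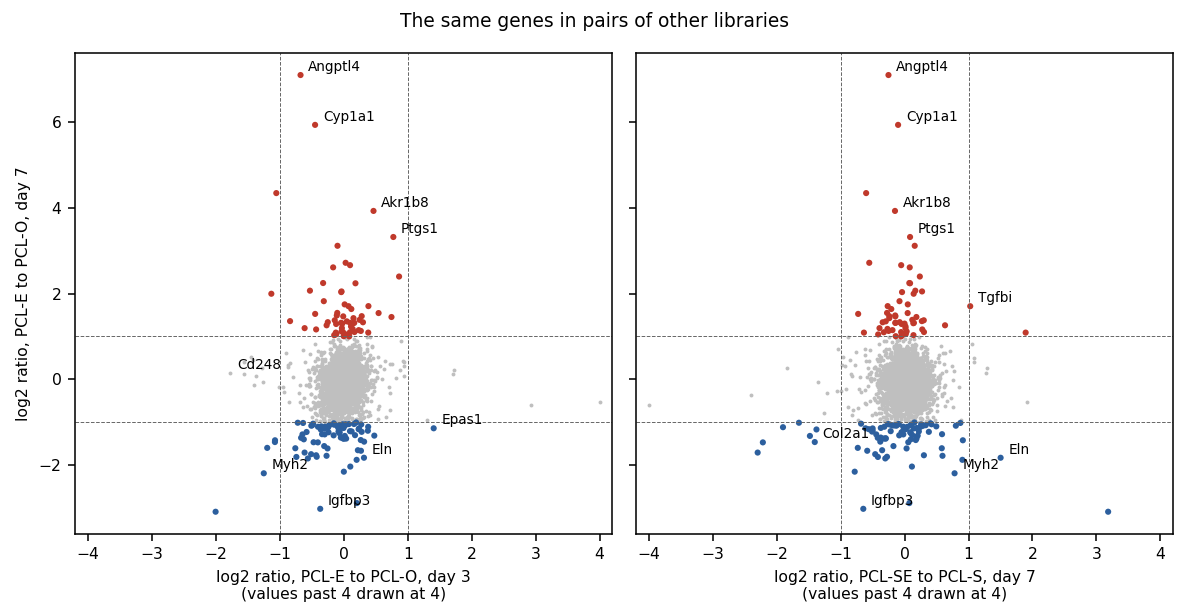
Each point is 1 of the 6920 genes, with the log2 ratio of PCL-E to PCL-O on day 7 on the y axis and on the x axis the log2 ratio of PCL-E to PCL-O on day 3 (left) or of PCL-SE to PCL-S on day 7 (right); red and blue mark the 61 higher and 84 lower genes. Most coloured points lie between the vertical dashed lines of 2-fold.

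Both S7 extracts differed from the same blank by more than the E7 extract did. These comparisons share the PCL-O library of day 7, so only their own values are set side by side. Of the 6920 genes, 413 were 2-fold higher (5.97%) and 805 lower (11.6%) in PCL-S, 1218 in all (17.6%). In PCL-SE 383 were higher (5.53%) and 759 lower (11.0%), 1142 in all (16.5%). In the order blank, E7, S7 and both, Angptl4 was at 0.191, 25.9, 215 and 180.2 normalised CPM. Akr1b8 was at 7.72, 117, 1833 and 1652, and Hmox1 at 191, 673, 2528 and 2393. For these genes the E7 library lay between the blank and the libraries with S7. Eln was at 1059, 299, 5.04 and 14.3 normalised CPM, Igfbp3 at 50.3, 6.22, 1.08 and 0.692, and Col1a1 at 25935, 15051, 4922 and 4561, with E7 again in between. Other genes were highest with E7 alone. Cyp1a1 was at 0.795, 48.3, 29.6 and 27.6 normalised CPM, Cyp1b1 at 517, 1301, 635 and 602, Nog at 6.01, 25.2, 3.70 and 4.15, and Acan at 92.7, 238, 55.9 and 67.4. With 1 library each, the order of neighbouring levels has no replicate check.

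**Figure D5:**
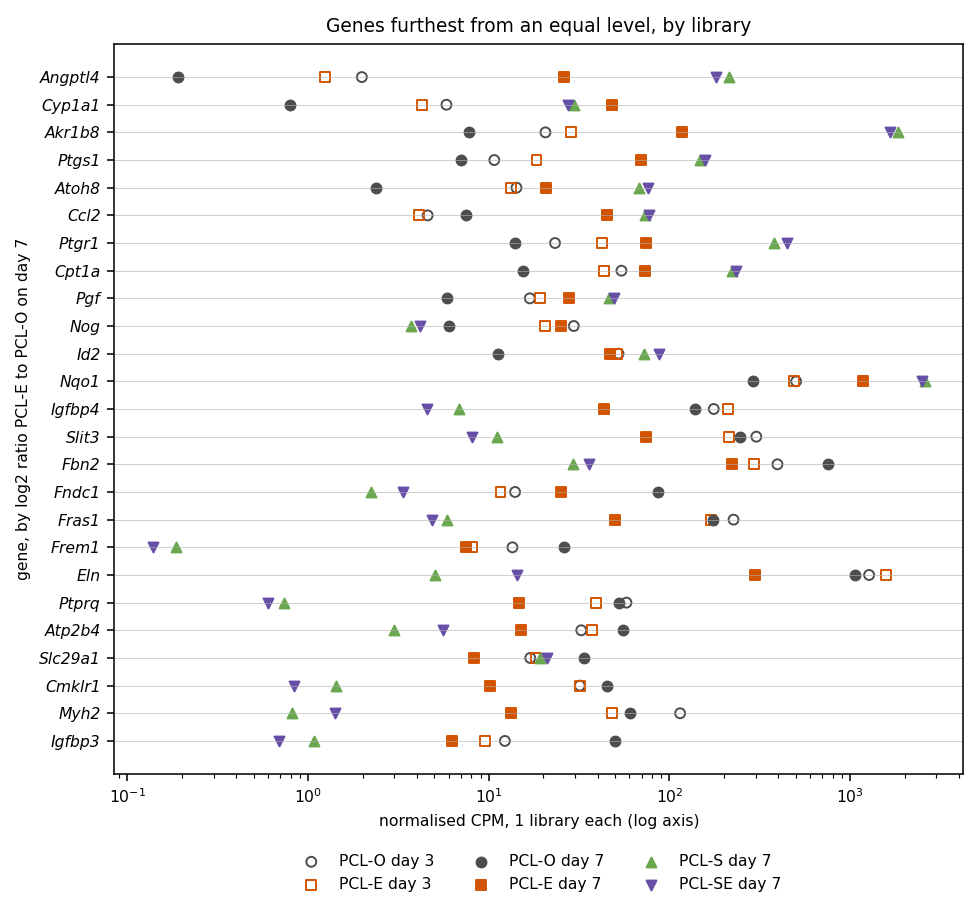
Normalised CPM (log axis) of the named genes with the highest and lowest ratios, clone-named genes left out, for PCL-O and PCL-E (open for day 3, filled for day 7) and, as triangles, both S7 extracts on day 7, 1 library each. Angptl4 runs from 0.191 in PCL-O to 25.9 in PCL-E on day 7, and Igfbp3 from 50.3 to 6.22.

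The authors' deposited table for this pair called 172 of the members up and 370 down at p 0.05 and 1.5-fold, per its header. All 61 and 84 genes above carry a call in the same direction there. It comes from the same 2 libraries, so it is not a second measurement.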

How the data were processed

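Messenger RNA was measured in 8 libraries of bone marrow mesenchymal stem cells, 1 per extract (4) and day (3 and 7). Per the labels' protocols, TRIzol was used for extraction and a SMARTER mRNA kit for the libraries. The authors deposited raw counts for each gene, 1 column a library, as the file headers show. For the aligner, the counter, their strand setting and the handling of reads shared between copies, the sources used here give nothing. The submitters' processing notes name mm10, which does not match the rat identifiers, so no coordinates were used. FPKM values, deposited beside the counts per the file headers, are the authors' scaling by gene length and fragment total and served only to derive gene lengths. A further 6 columns of per-sample values were not used, and 10 lines of annotation text were left out. The calls and log2 ratios in the authors' deposited table were used only as stated in the text.

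Counts were filtered with filterByExpr (15942 genes) and TMM scaling was done in edgeR 4.0.16 under R 4.3.3; the 20 CPM minimum was applied to library totals. Each side has 1 library, so genes are described at 2-fold with exact 95% counting intervals. On counts simulated with counting error only (Poisson) for 6920 genes of this pair, 95.2% of the intervals held the true ratio. The simulation held no variation between libraries, so it checks the interval formula only. A count of 0 was set to a floor of 3 counts (0.0719 CPM in PCL-E and 0.0910 CPM in PCL-O on day 7). At 20 CPM the counting error is about 7.64% (PCL-O) and 6.78% (PCL-E) of a level. Named genes are the 15 with the highest lower bound and the 15 with the lowest upper bound, any list member, and the 3 at each end of both other pairs. Of 849 genes on 43 lists, 818 were matched and 525 were members. Members and lists were chosen with earlier results of these data known. Alternatives were DESeq2 1.42.0 size factors, total-count scaling, TMM on the pair, added CPM, other minimums, the interval past 2-fold and removal of a lowess trend on length. Tables were handled with pandas 2.3.3 and intervals with scipy 1.17.1 in Python 3.11.15, and figures drawn with matplotlib 3.10.9.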

Additional observations from a re-analysis of the deposited data

Results flagged for a closer look

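In 5 genes the ratio of PCL-E to PCL-O on day 7 and the ratio in a pair of other libraries lay 2-fold or more apart from equal in opposite directions. With 1 library each, these differences were not tested.

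Epas1, which encodes HIF-2 alpha, had a log2 ratio of -1.14 on day 7 and 1.41 on day 3. Its level was 33.3 (PCL-O) and 88.2 (PCL-E) normalised CPM on day 3 and 29.2 and 13.3 on day 7, so PCL-E was above the blank on the earlier day and below it on the later. Eln, elastin, had a log2 ratio of -1.82 for E7 against blank and 1.502 for PCL-SE against PCL-S on day 7, where its level was 5.04 and 14.3 normalised CPM, far under the blank. The clone-named AABR07000398.1 had 4.34 on day 7 and -1.05 on day 3, and LOC103689961 had 1.99 and -1.13. LOC108351058 had -3.08 for E7 against blank and 3.18 for PCL-SE against PCL-S. Such loci can share reads with copies elsewhere, and their counts are uncertain.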

How the results depend on the processing

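The counts of 61 higher and 84 lower genes stayed within 1.5 times under DESeq2 size factors (60 and 84), total-count scaling (69 and 63), TMM on the pair (61 and 84), 2 CPM added (56 and 69), 0.5 CPM added (60 and 82), the length trend removed (58 and 70) and intervals wholly past 2-fold (52 and 61). They moved with the minimum level, which changes the genes compared: 154 higher and 159 lower at 5 CPM, 28 and 41 at 50 CPM, and 560 and 533 with filterByExpr alone. The median log2 ratio of the members was 0.0050 and became 0.10 with total-count scaling. For PCL-SE against PCL-S, 25 members at 2-fold became 13 with 2 CPM added; the alternatives for this pair and for day 3 were chosen after seeing the data. Of 62 named or listed genes past 2-fold, 61 stayed past it with DESeq2 size factors, 58 with total-count scaling, 57 with 2 CPM added and 53 with the length trend removed, and 0 reversed. Removing the trend changed the sign of 4 of 43 list medians: iron, endoplasmic reticulum stress, immediate early and lysosome genes. No paired analysis was possible because each extract and day has 1 library and the labels give no replicate numbers. Depth limits Angptl4 most, through its 6 counts in the blank.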

Other observations

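Some genes past 2-fold were on none of the gene lists and were picked out here after their values were seen. They are single genes and stand for no group. Fasn, fatty acid synthase, was at 394 (PCL-O) and 192 (PCL-E) normalised CPM on day 7, the desaturase Scd2 at 782 and 316, and the cholesterol exporter Abca1 at 25.02 and 9.63. On day 3 they were at 247 and 277, 299.7 and 417, and 12.3 and 12.4, with no gene 2-fold apart. With the length trend removed, the day 7 log2 ratio of Abca1 went from -1.38 to -0.91, under 2-fold.

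Osr1, a transcription factor of connective tissue progenitors, was at 416 and 159.8 on day 7, 2.60-fold lower (2.53 to 2.68). The growth factor receptor Flt1, like Pgf on no list, was at 30.2 and 9.63, while its ligand Pgf was higher, as given above. Hspb8, a small heat shock protein, was at 10.7 and 36.1, and the lysophosphatidic acid receptor Lpar1 at 8.71 and 23.8. Nrarp, a feedback gene on the Notch list that did not reach 20 CPM, was at 9.41 and 1.13 normalised CPM.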
